A study of Mus musculus and Homo sapiens with 22 samples.

Results

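The expression of 10 basement membrane genes was followed through RNA-seq of N2A cells, a mouse neuroblastoma line, in which 1 of 3 splicing regulators had been depleted. They were Col4a1, Col4a2, Lama1, Lama5, Lamb1, Lamc1, Nid1, Nid2, Hspg2 and Fbln2, which are 10 of the 22667 genes in each N2A file. The set was chosen by measured levels in these files. It was built around Col4a1, which was higher in shnSR100 than in shGFP cells, and Fbln2, which was lower in siPtbp1 than in control siRNA cells, and the other 8 were added as components of the same sheet. Both of these contrasts were therefore described without a test for any member, and only the U2af65 knockdown, which the choice did not use, was tested.

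The 6 N2A files covered 5 groups. The shnSR100 cells carried a lentiviral hairpin against nSR100, the neuronal splicing factor encoded by Srrm4, and the shGFP cells carried a hairpin against GFP. Both were stable populations kept under 2 ug/mL puromycin, with no clone named, and each file pooled 2 sequencing runs, so each hairpin group was 1 file without replicates. The siU2af65 and siPtbp1 cells were transfected with siRNA pools against U2af65, which binds the 3′ splice site and is encoded by U2af2, or against the splicing repressor Ptbp1, with 1 library each. Control siRNA (siCtrl) cells received a non-targeting pool and gave 2 libraries, a and b. All siRNA cells were harvested 48 hours after transfection. The labels give siU2af65 the letter a and siPtbp1 the letter b, and do not say that the control libraries came from separate cultures, so each p-value reflects the spread of these libraries alone, and that spread may be technical.

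Basement membranes are thin sheets of extracellular matrix that line epithelia, vessels, muscle and peripheral nerve. Laminin trimers, each made of an alpha, a beta and a gamma chain, form one network, and type IV collagen trimers form another. Nidogens and the heparan sulfate proteoglycan perlecan link the networks, and fibulin-2 binds laminins, nidogen and perlecan. Cells attach to the sheet through integrins and dystroglycan.

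RefSeq promoter windows (GRCm38.p6, 250 bases before to 50 after the start) were found for 7 of the 10 members, and a GC box, a CCAAT box and a TATA box (TATAAA) were searched in them on both strands. No motif contains another. The GC box, GGGCGG, bound by Sp1-type factors, occurred in 7 of the 7 windows and in 35.9% of the 27025 windows in the table. CCAAT occurred in 4 (Col4a1, Col4a2, Lamb1 and Nid1) and in 37.9% of all windows, and TATAAA in 0 and in 14.2%. These matches describe letters and not bound factors.

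The stretch around the GC box nearest the start is shown for 5 members, since this motif is what their windows have in common. Each is written 5′ to 3′ on the gene's strand, and the capitals mark that 1 box, as GGGCGG or its reverse complement. The Lamb1 stretch holds another in lower case. The stretches lie at chr2:180225856-180225885 (minus strand) for Lama5, chr12:31265206-31265235 (plus) for Lamb1, chr13:13437523-13437552 (plus) for Nid1, chr4:137468723-137468752 (plus) for Hspg2 and chr6:91212758-91212787 (plus) for Fbln2.
Lama5: cagcgggaccggCCGCCCcaaactagactt
Lamb1: cctccgccccctCCGCCCccgctctccatg
Nid1: gacaggcggggtGGGCGGgccctcccccat
Hspg2: gcgtgcacgggaGGGCGGggacgggagttg
Fbln2: gcgggacctgtgGGGCGGggtctcaaggcc

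The Fbln2 box starts 6 bases after the annotated gene start, the closest of the 5, and the window of Hspg2 held 5 such boxes, the most of the 5.

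Reads in genes ranged from 60220620 to 77138004 per file. Srrm4, U2af2 and Ptbp1 were each lowest, among the 6 files, in their own knockdown, at 2.50 RPKM in shnSR100 against 11.6 in shGFP, at 18.4 in siU2af65 against 113.3 and 105.4 in controls a and b, and at 8.53 in siPtbp1 against 157.8 and 138.7 in the controls. RPKM is the authors' read count scaled to gene length and library size, and it is used below for every level. The control libraries themselves differed by 1 or more in log2(RPKM + 1) at 86 genes higher (0.758% of those with at least 1 RPKM) and 108 lower (0.952%) in control b than in control a, none of them a member. The neuroblast markers Phox2a, Hand2, Gata3, Isl1, Th, Dbh, Mycn, Tubb3 and Stmn2 each reached 1 RPKM in at least 1 file. Several of them differed between groups, as given here and beside the results. Th had 20.2 and 6.61 RPKM in controls a and b, and Dbh had 21.0 and 5.31. Dbh had 3.80 RPKM in siPtbp1 and 1.26 in shGFP. Against control b alone its siPtbp1 difference in log2(RPKM + 1) was -0.39. The part of Th and Dbh in the differences below was not tested. In bulk RNA, fewer expressing cells and less RNA per cell cannot be told apart.

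Of the 10 genes, 7 reached 1 RPKM in at least 1 of the 6 files, and Lama1, Lamb1 and Nid2 did not. Fbln2 was the highest member in both hairpin files, in control a and in control b, Col4a1 was the highest in siU2af65, and Lamc1 was the highest in siPtbp1. The members differed in direction. In siU2af65 cells Col4a1 rose while Lamc1 and Hspg2 fell. In shnSR100 cells Col4a1 stood apart from the other members, and in siPtbp1 cells Fbln2 did. Those values chose the set, so nothing is read from their standing apart.

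**Figure D1:**
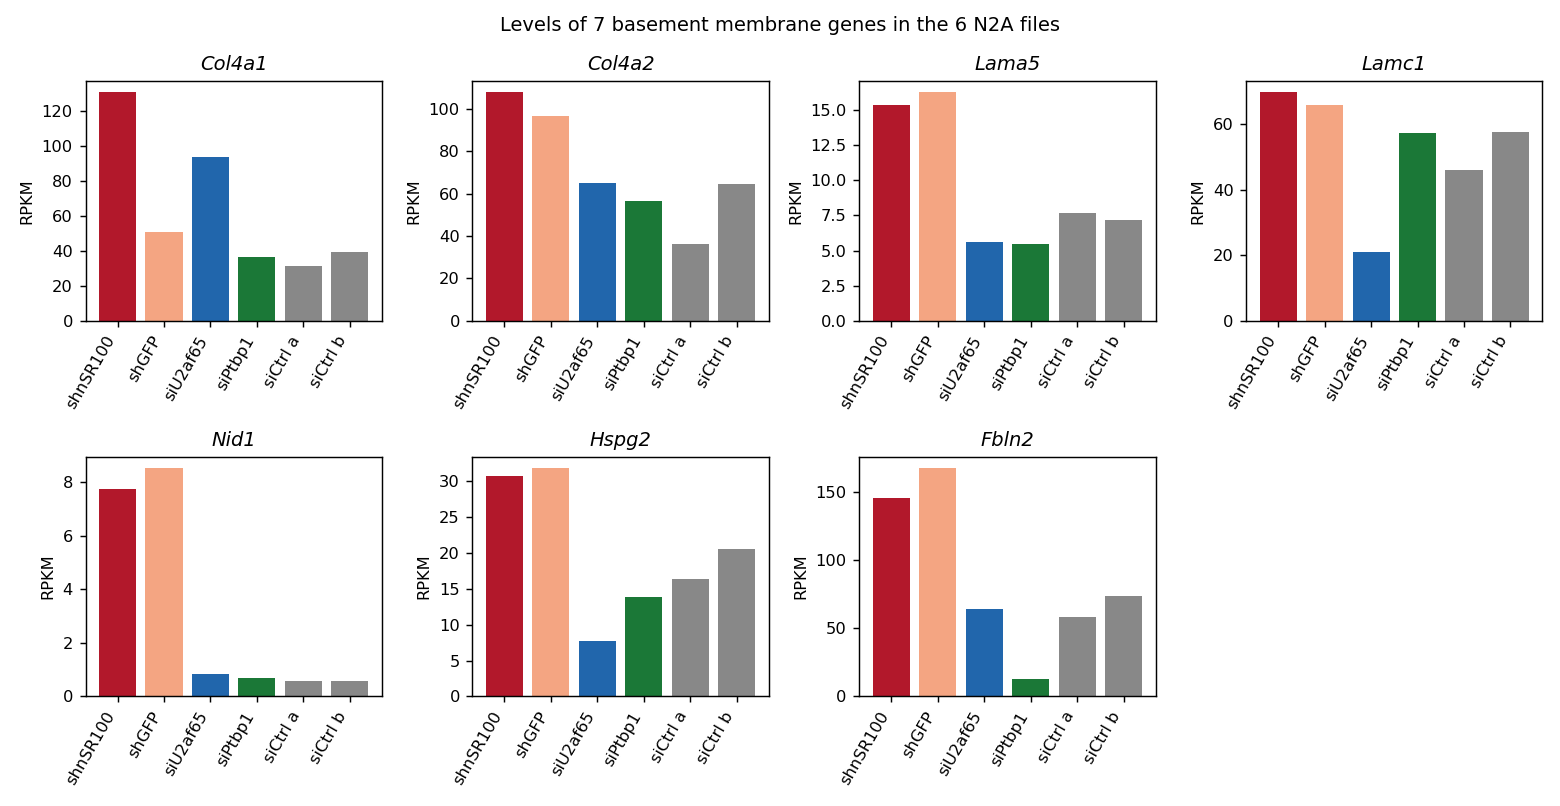
Level in RPKM (linear axes from 0, a different scale for each gene) of the 7 members that reached 1 RPKM, with 1 bar per N2A file and no error bar because each bar is 1 file. Col4a1 is at 130.5 in shnSR100 and 93.4 in siU2af65 and at 50.8 or less in the other 4 files, while Fbln2 is at 12.8 in siPtbp1 and at 58.1 or more in the other files.

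Col4a1 (ENSMUSG00000031502) and Col4a2 (ENSMUSG00000031503) encode the α1 and α2 chains that assemble into the most widespread type IV collagen trimer. The genes lie head to head on opposite strands and are known to share a promoter region. In the RefSeq annotation (GRCm38.p6) their starts overlap by 22 bases, at chr8:11312805-11312826.

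After U2af65 knockdown Col4a1 rose. It stood at 93.4 RPKM in siU2af65 cells, against 31.2 and 39.3 RPKM in controls a and b. The knockdown lay above both controls, and the controls averaged 35.2 ± 5.76 RPKM (SD, n = 2). The log2 difference was 1.31 (SE 0.24, edgeR quasi-likelihood adjusted p = 0.0197), and it was 1.55 against control a alone and 1.23 against control b alone on the log2(RPKM + 1) scale. Over all 11237 genes tested 5.24% were called, 1.82% as higher and 3.42% as lower (205 and 384 genes, or 580 and 578 when scaled by library totals). Of the 10 members 6 passed the filter of a mean of 1 RPKM over the siRNA libraries, each with more than 1 RPKM in every one of them, and of these 1 rose and 2 fell.

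For Col4a2, the partner chain, no change passed the test. Its level was 65.2 RPKM in siU2af65 cells, against 36.1 and 64.3 RPKM in controls a and b. The knockdown and control b were nearly level, and control a lay well below both. The log2 difference of 0.29 (SE 0.31) missed the threshold, with an edgeR adjusted p of 0.623. Its sign turned when control a was left out (-0.02) or when shGFP was added to the controls (-0.04), so no direction is given for Col4a2.

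Between the hairpin files, Col4a1 had 63044 reads (130.5 RPKM) in shnSR100 and 20094 reads (50.8 RPKM) in shGFP. That made its RPKM 2.57 times the control (95% counting interval 2.53 to 2.61, exact binomial, which covers counting error only). The difference in log2(RPKM + 1) was 1.34, and 14 of the 11877 genes with at least 1 RPKM in a hairpin file had a larger positive one. Col4a2 had 107.7 RPKM in shnSR100 and 96.5 in shGFP, 1.12 times the control (1.10 to 1.13). The partner chain thus differed far less between the same files. Neuroblast markers differed between these files as well, Mycn at 11.3 RPKM in shnSR100 against 26.9 in shGFP, Stmn2 at 146.0 against 286.7 and Tubb3 at 192.7 against 323.6, and their part in the Col4a1 difference was not tested.

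In siPtbp1 cells both chains lay between the controls. Col4a1 had 36.2 RPKM in siPtbp1 cells, against 31.2 and 39.3 RPKM in controls a and b. Col4a2 had 56.5 RPKM in siPtbp1 cells, against 36.1 and 64.3 RPKM in the controls.

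The ratio of the chains set the files apart in another way. Col4a1 RPKM over Col4a2 RPKM was 1.21 in shnSR100, against 0.526 in shGFP. It was 1.43 in siU2af65 and 0.641 in siPtbp1, against 0.863 and 0.611 in controls a and b. Col4a1 exceeded Col4a2 per length in shnSR100 and siU2af65 cells and was below it in the other 4 files. This ratio was not tested, because Col4a1 in shnSR100 is a value that chose the set.

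**Figure D2:**
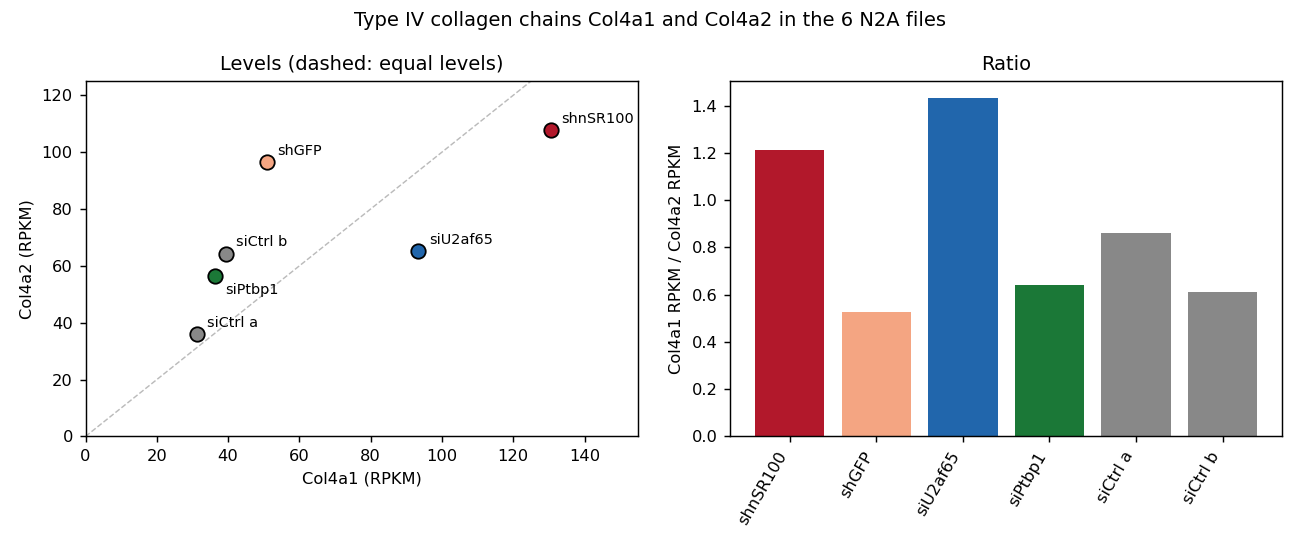
Left, Col4a2 against Col4a1 level in each N2A file (RPKM, 1 point per file, dashed line at equal levels); right, Col4a1 RPKM divided by Col4a2 RPKM per file. The shnSR100 and siU2af65 points lie below the line, with ratios of 1.21 and 1.43, and the other 4 lie above it, with ratios of 0.526 to 0.863.

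Among the laminin chains, Lamc1 (ENSMUSG00000026478), which encodes the γ1 chain found in most laminins, fell after U2af65 knockdown. It had 21.0 RPKM in siU2af65 cells, against 45.9 and 57.8 RPKM in controls a and b. The knockdown was below both controls, at 0.405 times their mean. The log2 difference was -1.40 (SE 0.27, edgeR adjusted p = 0.0244). In siPtbp1 cells Lamc1 had 57.3 RPKM, which lay between the controls, and in shnSR100 cells it had 69.8 RPKM, against 65.9 in shGFP.

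Lama5, which encodes the α5 chain of laminins in many adult basement membranes, was much lower in level. It had 5.58 RPKM in siU2af65 cells and 5.47 in siPtbp1 cells, against 7.69 and 7.18 RPKM in controls a and b. Both knockdowns were below both controls, but the U2af65 difference of -0.52 (SE 0.22) missed the threshold, with an edgeR adjusted p of 0.200. Lama5 had 15.4 RPKM in shnSR100 cells, against 16.3 in shGFP.

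The other laminin chains of the set, both part of the classical embryonic laminin, had few reads. Lama1, the α1 chain, had 15 reads in shnSR100, 2 in shGFP, 1 in siU2af65 and 0 in siPtbp1 and both controls, and a count of 0 allows up to 3 reads. Lamb1, the β1 chain, had 20 reads in shnSR100, 23 in shGFP, 8 in siU2af65, 2 in siPtbp1, and 2 and 8 in controls a and b. Both were highest in the hairpin files, at counts too low for a level or a comparison between conditions. Lamb2, the β2 chain and not one of the 10, had 24.1 RPKM in shnSR100, 20.1 in shGFP, 0.380 in siU2af65, 1.69 in siPtbp1, and 1.02 and 1.71 in the controls. The U2af65 difference of Lamb2 was -1.94 (SE 0.50, edgeR adjusted p = 0.0529) and missed the threshold.

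Hspg2 (ENSMUSG00000028763), the gene of the proteoglycan perlecan, fell after U2af65 knockdown together with Lamc1. It had 7.76 RPKM in siU2af65 cells, against 16.4 and 20.5 RPKM in controls a and b. The knockdown again lay below both controls, and the log2 difference was -1.34 (SE 0.24, edgeR adjusted p = 0.0186). Hspg2 had 13.9 RPKM in siPtbp1 cells, also below both controls, with a log2(RPKM + 1) difference of -0.38. In shnSR100 cells it had 30.7 RPKM, against 31.8 in shGFP. Isl1, a neuroblast marker, also fell in siU2af65 cells, to 5.79 RPKM, against 19.5 and 15.3 RPKM in controls a and b, a log2 change of -1.70 with an SE of 0.30 (edgeR adjusted p = 0.0179), and its part in the Col4a1, Lamc1 and Hspg2 changes was not tested.

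Nid1, which encodes nidogen-1, had low levels in every siRNA library and did not pass the filter for the U2af65 test. With no filter its log2 difference was 0.42 (edgeR adjusted p = 0.694). It stood at 0.850 RPKM in siU2af65 and 0.690 in siPtbp1, against 0.570 RPKM in each control, and at 7.74 RPKM in shnSR100, against 8.53 in shGFP. The hairpin files were higher than every siRNA library. Nid2, its paralog, had 14 reads in shnSR100, 20 in shGFP, 11 in siU2af65, 9 in siPtbp1, and 3 and 8 in controls a and b.

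Fbln2 (ENSMUSG00000064080) encodes fibulin-2, a secreted glycoprotein of basement membranes and elastic fibres. It had 12.8 RPKM (4178 reads) in siPtbp1 cells, against 58.1 RPKM (17326 reads) and 73.4 RPKM (26373 reads) in controls a and b. The siPtbp1 library lay far below every other N2A file, at 19.5% of the control mean. The log2(RPKM + 1) difference was -2.26, or -2.10 against control a and -2.43 against control b, and 4 of 11406 genes with at least 1 RPKM were lower still. Against control b alone, which bears the same letter, 0.194% of all genes were higher by 1 or more and 0.414% lower. These values chose the gene and carry no test.

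The other knockdowns left Fbln2 nearer to its controls. It had 64.0 RPKM in siU2af65 cells, which lay between the controls, and the log2 difference was -0.13 (SE 0.24, edgeR adjusted p = 0.783). In shnSR100 cells it had 145.3 RPKM, against 167.5 in shGFP, 0.867 times the control (counting interval 0.857 to 0.878).

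The other fibulin genes on the lists were looked at after their values were seen. Fbln1, which encodes fibulin-1, had 113.2 RPKM in siPtbp1 cells, against 129.7 and 133.5 RPKM in controls a and b. Efemp2, which encodes fibulin-4, had 3.32 RPKM in siPtbp1, against 6.64 and 5.40 in the controls, a log2(RPKM + 1) difference of -0.69. Fbln5 and Efemp1 had at most 7 reads each in siPtbp1 and the controls. Fbln2 was the fibulin with the lowest share of its control level among those above 1 RPKM, with 19.5% beside 55.1% for Efemp2. The Fbln2 value in siPtbp1 chose the gene, so nothing is read from this order.

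**Figure D3:**
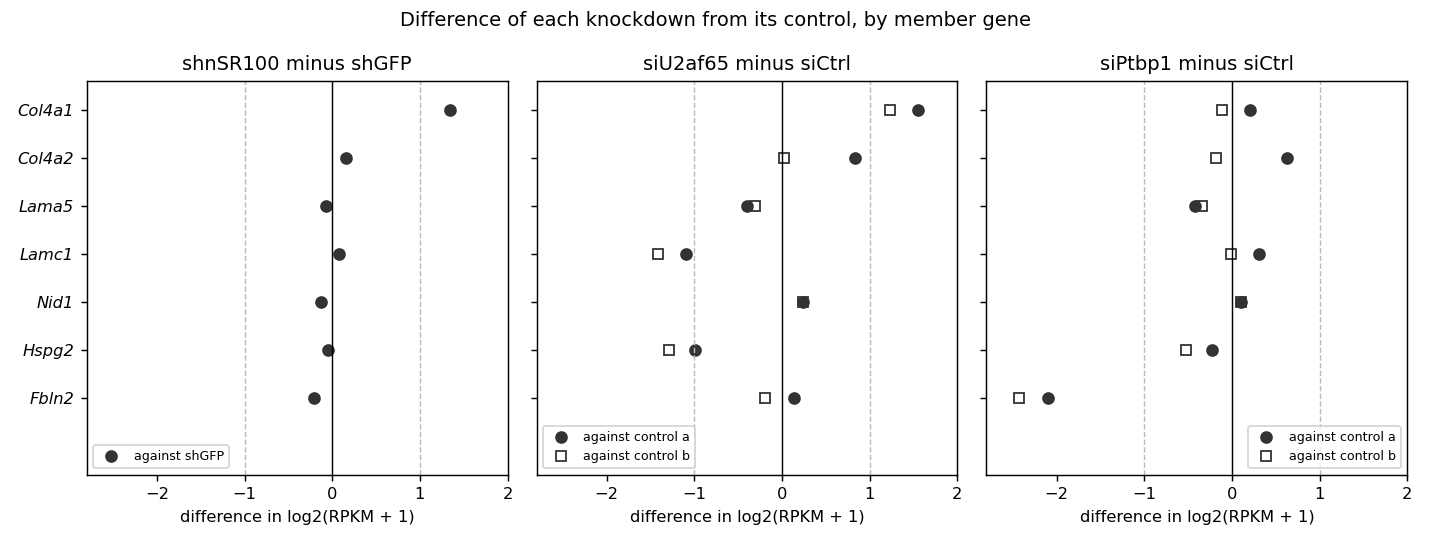
Difference in log2(RPKM + 1) of each knockdown from its control (x axis) for the 7 members that reached 1 RPKM (y axis), against shGFP or against control a (filled circles) and control b (open squares), with dashed lines at a difference of 1 either way. Col4a1 is at 1.34 in shnSR100 and at 1.55 and 1.23 in siU2af65, and Fbln2 is at -2.10 and -2.43 in siPtbp1.

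Counted over the set, 1 member (Col4a1) was higher and 0 were lower by 1 or more in log2(RPKM + 1) in shnSR100 than in shGFP, among the 7 with at least 1 RPKM in a hairpin file. Over all such genes 0.303% were higher and 0.615% lower. Apart from Col4a1, the 6 members had differences of -0.20 to 0.16. In siPtbp1 cells 0 members were higher and 1 (Fbln2) was lower by this measure among 6, with 0.193% of all genes higher and 0.596% lower. Nothing is read from these counts, since both contrasts chose the members. The siU2af65 and siPtbp1 comparisons share the control libraries.

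Other basement membrane genes were listed by role, with earlier results of the data known. Of 31, 11 were tested after U2af65 knockdown with edgeR, 0 rose and 2 fell, while limma called 0 and 4, DESeq2 0 and 5, and an unadjusted edgeR p under 0.05 gave 0 and 6. Over all genes limma called 5.83% as higher and 5.61% as lower, DESeq2 called 3.02% and 6.28%, and the unadjusted edgeR p gave 10.5% and 13.0%. Their median log2 difference was -0.77, beside -0.004 over all genes tested. Sparc, which encodes a collagen-binding matricellular protein, had 13.7 RPKM in siU2af65 cells, against 22.8 and 37.6 RPKM in controls a and b, which is a log2 change of -1.22 (SE 0.29, edgeR adjusted p = 0.0422). Npnt, the gene of the integrin ligand nephronectin, had 2.37 RPKM, against 5.88 and 9.22 RPKM in the controls, which is a log2 change of -1.76 (SE 0.35, edgeR adjusted p = 0.0271). Between shnSR100 and shGFP, none of 14 such genes with at least 1 RPKM in either differed by 1 or more in log2(RPKM + 1). Of all genes 0.303% were higher and 0.615% lower. This scale understates the change of low genes. Lama2, which reached 1 RPKM through shnSR100 alone, had 2.39 RPKM there and 0.860 in shGFP, a ratio of 2.78. Col7a1 was at 0.498 times and Efemp2 at 1.98 times the shGFP level. Between siPtbp1 and the controls none of 11 differed by 1 or more in log2(RPKM + 1), beside 0.193% of all genes higher and 0.596% lower.

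Enzymes that fold and crosslink collagen gave 2 decreases and 0 increases among 14 tested of 17 after U2af65 knockdown, with a median log2 difference of -0.25. Limma called 4 decreases, DESeq2 called 3, and neither called an increase. Of all genes edgeR called 1.82% as higher and 3.42% as lower, limma 5.83% and 5.61%, and DESeq2 3.02% and 6.28%. These shares stand beside the counts of this list and of those below. Ppib, which encodes the endoplasmic reticulum prolyl isomerase cyclophilin B, had 60.1 RPKM in siU2af65 cells, against 244.5 and 238.7 RPKM in controls a and b, which is a log2 change of -2.11 (SE 0.23, edgeR adjusted p = 0.00519). Plod1, a lysyl hydroxylase gene, had 20.1 RPKM, against 40.7 and 70.8 RPKM in the controls, which is a log2 change of -1.56 (SE 0.30, edgeR adjusted p = 0.0262). In siPtbp1 cells 2 genes of this list were lower by 1 or more than the control mean, P4ha2 at 66.5 RPKM against 207.7 and 90.5, and Plod2 at 37.5 RPKM against 117.5 and 49.1. Both were also lower by 1 or more in control b than in control a. Against control b alone their log2(RPKM + 1) differences were -0.44 and -0.38.

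Receptors for the basement membrane gave 1 decrease and 0 increases among 12 tested of 15, with a median log2 difference of -0.38, and limma and DESeq2 each called 2 decreases and 0 increases. Itga1, the integrin α1 chain that pairs with β1 to bind type IV collagen, had 4.01 RPKM in siU2af65 cells, against 11.8 and 16.5 RPKM in controls a and b. Its log2 level fell by 1.91, with an SE of 0.26 (edgeR adjusted p = 0.00990). Itgb1, the β1 chain, named after its values were seen, was at 291.1 RPKM in siU2af65, against 362.9 and 351.5 in the controls, and its difference of -0.40 (SE 0.35) missed the threshold (edgeR adjusted p = 0.530). Of 14 matrix proteases and inhibitors 6 were tested and 0 called by edgeR after U2af65 knockdown, while limma called 1 decrease, DESeq2 called 3, and an unadjusted edgeR p under 0.05 gave 4. Between the hairpin files Mmp9, a gelatinase gene, was lower by 1.06 in log2(RPKM + 1), at 1.06 RPKM in shnSR100 and 3.28 in shGFP.

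The spread behind the U2af65 tests came from the control pair alone, mostly pooled over all genes tested, and the single knockdown library was assumed to vary like it. The calls of Col4a1, Lamc1 and Hspg2 held in 7 of 8 fits and were lost when shGFP was added to the controls, with adjusted p of 0.394, 0.389 and 0.394 and log2 differences of 1.16, -1.48 and -1.61.

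Between stable shGFP cells and transfected control cells, 3 of the 7 members with at least 1 RPKM in these files were higher in shGFP by 1 or more in log2(RPKM + 1) and 0 were lower, where 7.91% of all genes were higher and 2.27% lower. The 3 were Nid1 at 2.60, Fbln2 at 1.35 and Lama5 at 1.03. Nid1 reached 1 RPKM through shGFP alone, which fixed its direction. Of the other 6 members 2 were higher, beside 6.03% of the genes that reached 1 RPKM in a control siRNA library. Fbln2 had 167.5 RPKM in shGFP, against 58.1 and 73.4 RPKM in controls a and b. The hairpin and siRNA controls differ in delivery, selection and run structure, which cannot be told apart from the hairpin itself. Scaling by TMM in place of library totals moves the median of all genes by -0.17 here, and Lama5 lies within that distance of a difference of 1.

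Of 12 other basement membrane genes 5 were higher in shGFP by 1 or more and 0 lower. Over all genes 7.91% were higher and 2.27% lower, and these shares stand beside each count of this paragraph. Tinagl1, 1 of the 5, reached 1 RPKM through shGFP alone, which fixed its direction. The largest of them were Lamb2, at 20.1 RPKM in shGFP against 1.02 and 1.71 in controls a and b, and Sparc, at 220.1 RPKM against 22.8 and 37.6. Tinagl1 and Lama4 followed, at differences of 1.75 and 1.53. Among the receptors 5 of 14 were higher and 1 lower, among the proteases and inhibitors 5 of 9 were higher and 0 lower, and among the collagen folding and crosslinking enzymes 2 of 14 were higher and 0 lower, with a median of 0.07 beside 0.17 over all genes. Itga3, the integrin α3 chain that binds laminin, had 18.7 RPKM in shGFP, against 1.16 and 1.54 in the controls, whereas Itga1 had 4.97 RPKM, against 11.8 and 16.5.

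**Figure D4:**
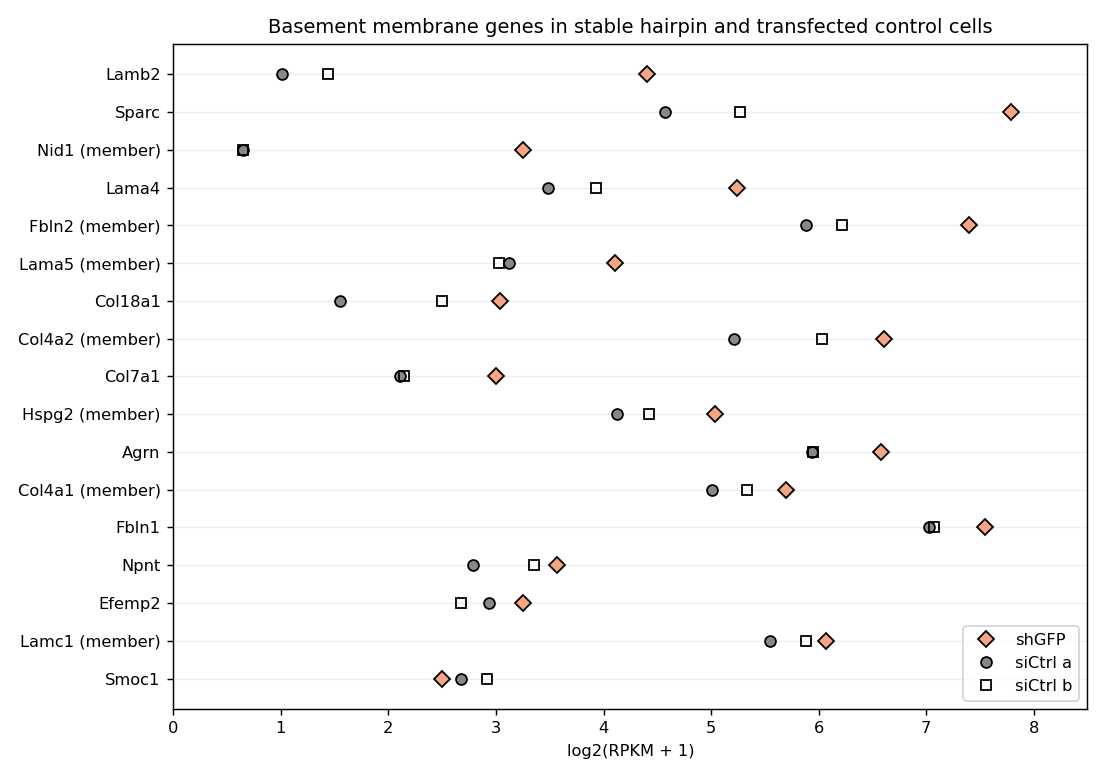
Level as log2(RPKM + 1) (x axis) of the members with at least 1 RPKM in a control file and the other basement membrane genes with at least 1 RPKM in a control siRNA library (y axis, sorted by difference), in shGFP (diamonds), control siRNA a (circles) and control siRNA b (squares), with 1 point per file. The diamond lies to the right of both control siRNA points for every gene shown except Smoc1.

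Markers of other cell types that make basement membrane were partly present, and their part in these differences was not tested. The summed level of 8 fibroblast markers was 12.4 RPKM in shnSR100 and 7.42 in shGFP, and 0.840 in siU2af65 and 0.740 in siPtbp1, against 0.420 and 0.780 RPKM in controls a and b. Dcn and Pdgfra were the 2 of these 8 that reached 1 RPKM, both in the hairpin files, while Col3a1, Lum and Fap had at most 10 reads in every file. The 8 endothelial markers summed to 26.6 RPKM in shnSR100 and 23.9 in shGFP, and to 11.9 in siU2af65 and 6.88 in siPtbp1, against 6.30 and 7.72 in the controls, with Kdr, Tie1 and Cldn5 at 10 reads or fewer. Vwf had 16.5 RPKM in shnSR100 and 14.1 in shGFP, and 1.01 in siU2af65 and 0.480 in siPtbp1, against 0.830 and 1.23 in the controls. Pecam1 had 9.15 RPKM in siU2af65 and 4.54 to 6.62 in the other files, and Esam had 0.850 to 3.21 RPKM, highest in shGFP. Epithelial markers summed to between 0.780 and 1.13 RPKM over the 6 files, with Epcam, Krt18, Krt19 and Cldn4 at 10 reads or fewer. Of the 6 parietal endoderm markers, 4 (Sox17, Gata6, Foxa2 and Thbd) had 10 reads or fewer, and Gata4 was present in every file, at 51.7 RPKM in siU2af65, against 27.4 and 33.7 in the controls. The list summed to 27.0 RPKM in shnSR100, 32.2 in shGFP, 51.8 in siU2af65 and 32.4 in siPtbp1, against 27.6 and 33.9 RPKM in controls a and b. The glial markers S100b and Sox10 had 10 reads or fewer in every file.

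Across the 6 N2A files, the pattern of Col4a1 was closest to that of Sipa1l1, Myh3 and Pes1, with Pearson r of 0.995, 0.987 and 0.984 on log2(RPKM + 1) among 9154 genes averaging 5 RPKM or more. Sipa1l1 ran over a narrower range than Col4a1, from 22.9 RPKM in control a to 27.4 RPKM in shnSR100. Col4a2 was at rank 1636 in this order, with r of 0.71 over the same 6 files. The pattern of Fbln2 was closest to that of Hps1, Rabgap1 and C1qtnf6, with r of 0.993, 0.989 and 0.988, and Lama5 stood at rank 347 with r of 0.81. The remaining members that averaged 5 RPKM or more ranked between 1709 and 6205 in these orders. All points share the same 6 libraries, and the correlations are descriptions.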

How the data were processed

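The authors deposited, per Ensembl gene and N2A file, raw read counts and RPKM, in tables without column names. Blank counts were taken as 0, and 1114 genes had no RPKM. The submitters' processing notes list Bowtie, bedtools 2.17.0 and the build mm9 without saying which step used them. The counting rule, strand use and annotation are not given in the sources used here, so overlapping or antisense genes, such as Col4a1 and Col4a2 at their starts, are uncertain. Symbols matched 20759 of 22667 identifiers.

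The siU2af65 library was tested with edgeR 4.0.16 (quasi-likelihood, TMM, R 4.3.3) on the counts of 11237 genes averaging 1 RPKM or more over the 4 siRNA libraries, with Benjamini-Hochberg adjustment over all of them and a threshold of 0.05. The fit had 1 residual degree of freedom and a prior of 8.65 degrees of freedom. The spread used for each gene was therefore drawn mostly from all genes tested, and less from that gene's own controls. The SE is the log2 difference over the square root of its F statistic. The script was checked on simulated data with a smaller dispersion than the fitted 0.0375 and with larger changes than those of the called members. That check therefore does not bear on the calls made here. Other comparisons are differences in log2(RPKM + 1), which understate the change of low genes. Alternatives used limma 3.58.1 and DESeq2 1.42.0. Named genes were all members, the targeted genes, up to 4 called genes per list and comparison, and the 3 nearest patterns. Members and lists were chosen with earlier results of these data known. Crosslinking and 293T samples were not analysed here.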

Additional observations from a re-analysis of the deposited data

How the results depend on the processing

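In the edgeR fit 205 genes rose and 384 fell after U2af65 knockdown. The counts were 580 and 578 with library totals in place of TMM (TMM moves the median of all genes by -0.12), 688 and 961 with no filter on RPKM, 74 and 183 when genes had to average 5 RPKM, 655 and 630 with limma on log2(RPKM + 1), 339 and 706 with DESeq2, and 0 and 0 with shGFP added to the controls. That last edgeR fit had 432 higher and 730 lower genes at an unadjusted p under 0.05, and it left 0 members that rose and 0 that fell (1 and 2 unadjusted), where the other 7 fits gave 1 and 2. Over the 8 fits the adjusted p ran from 3.81e-08 to 0.394 for Col4a1, from 1.56e-06 to 0.389 for Lamc1 and from 2.75e-05 to 0.394 for Hspg2. Col4a2 changed sign, to -0.045 with shGFP added and to -0.0225 without control a (0.69 without control b). The cause was not tested. With a pseudocount of 0.1 RPKM the genes past 2-fold numbered 72 higher and 142 lower in siPtbp1 (22 and 68 with 1 RPKM), and 93 higher and 154 lower in shnSR100 (36 and 73). Leaving out 1 control gave 22 to 88 higher and 47 to 175 lower in siPtbp1, the larger counts being those without control b. The members past 2-fold numbered the same in each of these settings. No paired analysis was possible because each knockdown shares its letter with only 1 control library. Counts near 0 limit Lama1, Lamb1 and Nid2, and 1 library per knockdown limits every comparison.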
